A study of Mus musculus with 14 samples.

Results

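Mouse oocytes with a surrounded nucleolus (SN) that overexpressed Rnaseh1 were compared with SN oocytes that overexpressed mCherry, a red fluorescent protein. The libraries were chosen by their labels alone and make up 4 of the 14 libraries of the series, with 2 of SN Rnaseh1 and 2 of SN mCherry. Of 35389 gene identifiers in their table, 12736 reached a TPM (a transcript's share of its library, corrected for transcript length) of at least 1 in at least 2 of its 8 libraries, and these genes were tested. The other 4 libraries of the table came from oocytes with a non-surrounded nucleolus (NSN), 2 with Rnaseh1 and 2 with mCherry. A second table, the rescue set, was normalized on its own and holds 6 libraries, 2 each of Rnaseh1 plus Supt6, Rnaseh1 and mCherry, with no oocyte stage in its labels. All groups were described as oocytes and all libraries were made from polyadenylated RNA with amplified cDNA. The labels give no strain, animal age, construct, delivery route, time after delivery or number of oocytes per library. Nothing in them tells if paired libraries of one group were separate animals, pools or repeat preparations, and the p-values cover only library-to-library spread, which may be technical. In such bulk RNA, fewer cells of a type and less RNA per cell cannot be told apart. TPM keeps no depth, so no counting error is given.

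RNase H1 is the enzyme that cuts the RNA strand of RNA:DNA hybrids and so removes R-loops, which form when a nascent transcript pairs again with its DNA template. In growing oocytes the chromatin gathers around the nucleolus, and the SN configuration is known for largely silent transcription and for a high capacity to resume meiosis, while NSN oocytes still transcribe. H3K36me3 is laid down behind elongating RNA polymerase II by SETD2, which binds the polymerase together with SPT6, the protein encoded by Supt6, and H3K4me3 marks active promoters. The series title names R-loops, H3K36me3 and H3K4me3 in SN oocyte development as its subject.

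The 4 SN libraries were not alike within their groups. On the log2(TPM + 1) scale, the SD of the difference over the 12736 genes was 0.689 between the SN Rnaseh1 libraries, and 1.05 between the SN mCherry libraries. SN mCherry library 1 lay closer to the Rnaseh1 libraries, at SDs of 0.728 and 0.79, than to SN mCherry library 2. The Rnaseh1 libraries differed from SN mCherry library 2 with an SD of 1.27 each. SN mCherry library 2 was at least 2-fold above all 7 other libraries of its table at 790 genes and at least 2-fold below them at 137 genes, whereas the other SN libraries had 17 to 29 such genes above and 11 to 59 below. One NSN Rnaseh1 library also stood apart, with 180 genes above and 1387 below all others.

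The number of genes past 2-fold therefore depended on which mCherry library was used. Against SN mCherry library 1, SN Rnaseh1 library 1 had 747 genes at least 2-fold higher and 1029 at least 2-fold lower, and SN Rnaseh1 library 2 had 811 higher and 1229 lower. Against SN mCherry library 2, SN Rnaseh1 library 1 had 1591 higher and 3700 lower, and SN Rnaseh1 library 2 had 1528 higher and 3709 lower. The log2 difference also moved with the GC content of the transcript, with Spearman's rho across genes of -0.22 and -0.28 for the Rnaseh1 libraries against SN mCherry library 1 and of -0.44 and -0.48 against SN mCherry library 2. Between the SN mCherry libraries themselves, rho was 0.40 for library 2 minus library 1. The part of GC content in the differences was not tested beyond the removal of its trend.

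**Figure D1:**
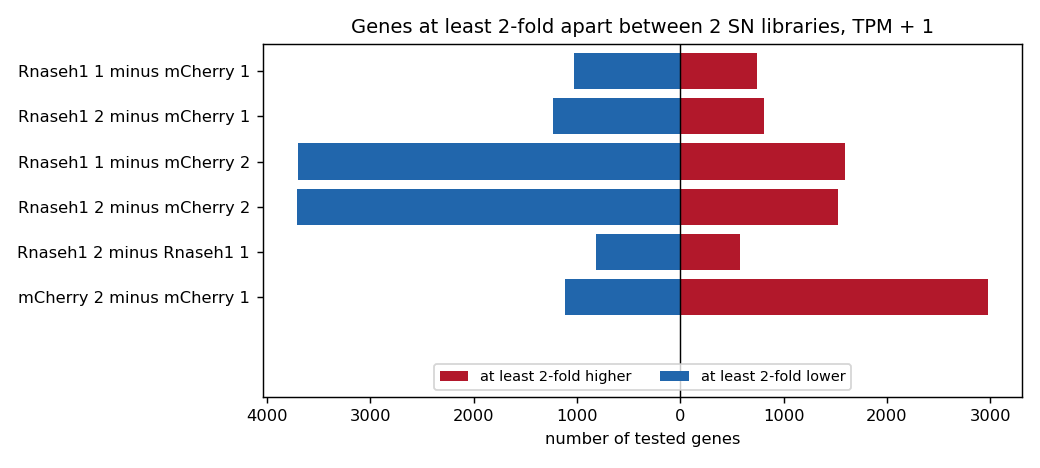
Number of tested genes at least 2-fold higher (red, right) or lower (blue, left) between pairs of SN libraries on the TPM + 1 scale, for each Rnaseh1 library minus each mCherry library and for the replicates of each group. The bars against mCherry library 2 reach 3709 genes on the lower side, against 1229 at most for mCherry library 1, and mCherry library 2 minus mCherry library 1 has 2978 higher and 1115 lower genes.

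Genes that set SN mCherry library 2 apart show the size of this difference. Tpra1, an adipocyte-associated membrane protein gene, had 22.9 and 17.1 TPM in the SN Rnaseh1 libraries, against 17.8 and 285 TPM in the SN mCherry libraries. Rnf122, a RING finger protein gene, had 4.62 and 2.42 TPM with Rnaseh1 and 5.88 and 108 TPM with mCherry. Slirp, which encodes a mitochondrial RNA-binding protein, had 233 and 239 TPM with Rnaseh1 and 214 and 20.7 TPM with mCherry. In each of them SN mCherry library 1 sat with or near the Rnaseh1 libraries and library 2 far from the other 3. The genes that set library 2 apart upward also differed in the rescue set, fitted as a separate table, where 755 of the 779 tested there (96.9%) fell with Rnaseh1 and 3 rose, against 45.9% and 21% of the 11806 genes tested in both tables. Of the downward ones, 104 of 131 rose and 1 fell. Median transcript GC content was 54.1% for the upward genes and 44.3% for the downward ones, against 48.1% for all tested genes. The part of GC content in these counts was not tested.

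The libraries were checked against cell type markers. The oocyte genes were abundant in all 4 SN libraries, among them Dppa3 at 15522 and 14324 TPM with Rnaseh1 and 13670 and 6557 TPM with mCherry. Foxl2, Amh, Inha and Inhba (granulosa cells), Ptprc, Lyz2 and Cd52 (immune cells), Hbb-bs (red blood cells) and Col1a1 (stroma) were listed at 0 in all 4. Of 16 granulosa and cumulus markers, 7 were at 0 in all 4 libraries, and the summed level of the list was 39.4 and 39.7 TPM with Rnaseh1 and 47.2 and 54.3 TPM with mCherry. Of its 3 tested genes, Kitl and Nr5a2 were higher and Cyp19a1 lower in both Rnaseh1 libraries. These shares were 66.7% and 33.3%, against 18.9% and 31.7% of all tested genes. Nr5a2 was barely apart, at 7.32 and 5.95 TPM with Rnaseh1 and 5.14 and 5.81 TPM with mCherry. Kitl was near the floor, at 2.28 and 1.88 TPM with Rnaseh1 and 1.06 and 0.83 TPM with mCherry. Most of the sum was Cyp19a1, the aromatase gene, at 29.5 and 30.1 TPM with Rnaseh1 and 40.7 and 46.1 TPM with mCherry. Of 16 blood, immune, stromal, endothelial and epithelial markers, 11 were at 0 in all 4. Their sum was 7.74 and 8.75 TPM with Rnaseh1 and 12.1 and 28.7 TPM with mCherry. The 3 tested genes of this second list were Epcam (epithelium), Dcn (stroma) and Pecam1 (endothelium). All 3 were lower in both Rnaseh1 libraries, as were 31.7% of all tested genes. Epcam and Dcn were near the floor, at 0 to 0.68 TPM with Rnaseh1 and 0.67 to 2.03 TPM with mCherry. Pecam1 was barely apart, at 6.58 and 8.57 TPM with Rnaseh1 and 9.12 and 25.9 TPM with mCherry. The part of these genes in the results was not tested.

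Whether Rnaseh1 overexpression changed the transcript levels of SN oocytes was tested with limma across all 12736 genes and all 8 libraries. No gene passed a Benjamini-Hochberg adjusted p of 0.05 (0% of the tested genes), and the smallest adjusted p was 0.407. At an unadjusted p under 0.05 there were 859 genes (6.74%), 466 of them higher (3.66%) and 393 lower (3.09%) with Rnaseh1, where 637 would have that p if nothing differed. In simulated data of the same design with 200 changed genes, 73.9% of those changed by 4 on the log2 scale were called and 0% of those changed by 2. A single gene cannot reach p = 0.05 in an exact two-sided permutation test of 2 libraries against 2, whose smallest p is 0.333. The levels below are therefore given library by library. The median log2 fold change over all tested genes was -0.22 and the median SE 0.53.

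Both Rnaseh1 libraries were above both mCherry libraries at 2413 genes (18.9%) and below both at 4043 genes (31.7%), and the remaining 6280 overlapped. As a description, the gap of a gene is the distance on the log2(TPM + 1) scale between the nearest libraries of the SN groups. A gap of at least 2-fold was found at 187 genes that were higher with Rnaseh1 (1.47%) and at 273 that were lower (2.14%). With each library centred on its median gene, which moved the median of all genes by 0.24, these counts were 259 higher and 194 lower. With quantile normalization they were 263 higher and 172 lower. Just inside the edge was Kdelr2, at 78.4 and 67.9 TPM with Rnaseh1 against 33.4 and 30.3 TPM with mCherry, and just outside was Nsmce4a, at 252 and 290 TPM against 97.8 and 126 TPM. On the lower side Noto was just inside, at 16.5 and 21.6 TPM with Rnaseh1 against 44.3 and 159 TPM with mCherry, and Pld2 just outside, at 2.85 and 1.55 TPM against 6.70 and 43.7 TPM.

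Rnaseh1 itself, which lies on chromosome 12 from 28649602 to 28659589 (GRCm38), checked the labels. It had 1361 and 1083 TPM in the SN Rnaseh1 libraries, against 81.0 and 131 TPM in the SN mCherry libraries. Both overexpressing libraries stood far above both controls, which matches their labels, and the table does not separate introduced from endogenous transcript. Its log2 fold change was 3.55 (SE 0.57), with an adjusted p of 0.407 in limma. In NSN oocytes it had 745 and 229 TPM with Rnaseh1 and 137 and 108 TPM with mCherry. In the rescue set, normalized apart, it had 1243 and 625 TPM with Rnaseh1 and 125 and 114 TPM with mCherry.

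A group of 4 further genes, singled out with earlier results of these data known, was higher in both SN Rnaseh1 libraries than in the other 6 libraries of the table. Mcmbp (chromosome 7, 128696441 to 128740495) encodes a binding partner of the MCM replicative helicase that chaperones its subunits. It had 157 and 184 TPM in SN Rnaseh1 oocytes, against 16.9 and 23.6 TPM in SN mCherry oocytes. In NSN oocytes it had 21.9 and 29.8 TPM with Rnaseh1 and 19.8 and 18.9 TPM with mCherry. Both SN Rnaseh1 libraries thus lay above all 6 others without overlap, with a log2 fold change of 3.03 (SE 0.36, limma adjusted p = 0.407), and the adjusted p ran from 0.06 upward over the alternative settings. In the rescue set Mcmbp rose to 34.0 and 31.1 TPM with Rnaseh1, against 18.0 and 10.4 TPM with mCherry (log2 fold change 1.19, limma adjusted p = 0.0066).

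Scml2 (chromosome X, 161117193 to 161258213) encodes a Polycomb protein of the Scm type, known from the mouse male germline. It had 315 and 363 TPM in SN Rnaseh1 oocytes, against 58.5 and 44.2 TPM in SN mCherry oocytes. In NSN oocytes it had 92.1 and 143 TPM with Rnaseh1 and 60.2 and 75.6 TPM with mCherry. The groups did not overlap at either stage, and the SN log2 fold change was 2.71 (SE 0.36). In the rescue set Scml2 rose with Rnaseh1, to 118 and 101 TPM, against 59.2 and 87.4 TPM with mCherry (log2 fold change 0.59, limma adjusted p = 0.035).

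Mapk8 (chromosome 14, 33377898 to 33447158) encodes the stress-activated kinase JNK1. It had 150 and 120 TPM in SN Rnaseh1 oocytes, against 20.1 and 24.3 TPM in SN mCherry oocytes. In NSN oocytes it had 40.1 and 33.1 TPM with Rnaseh1 and 32.7 and 31.6 TPM with mCherry. The SN groups were far apart and the NSN libraries lay close together, with an SN log2 fold change of 2.55 (SE 0.33). In the rescue set the order was the other way round: Mapk8 fell to 38.5 and 37.0 TPM with Rnaseh1, against 55.1 and 63.2 TPM with mCherry (log2 fold change -0.63, limma adjusted p = 0.0026). The value was -0.04 after median centring and -0.99 with the GC trend removed (limma adjusted p = 0.00029).

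Copb1 (chromosome 7, 114215559 to 114254711) encodes the beta subunit of the COPI vesicle coat. It had 990 and 1436 TPM in SN Rnaseh1 oocytes, against 252 TPM in each SN mCherry library. In NSN oocytes it had 296 and 339 TPM with Rnaseh1 and 298 and 293 TPM with mCherry. The SN mCherry libraries, so far apart at other genes, were level here, and the SN log2 fold change was 2.24 (SE 0.32). Copb1 rose in the rescue set, to 456 and 422 TPM with Rnaseh1, against 255 and 277 TPM with mCherry (log2 fold change 0.72, limma adjusted p = 0.00082).

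**Figure D2:**
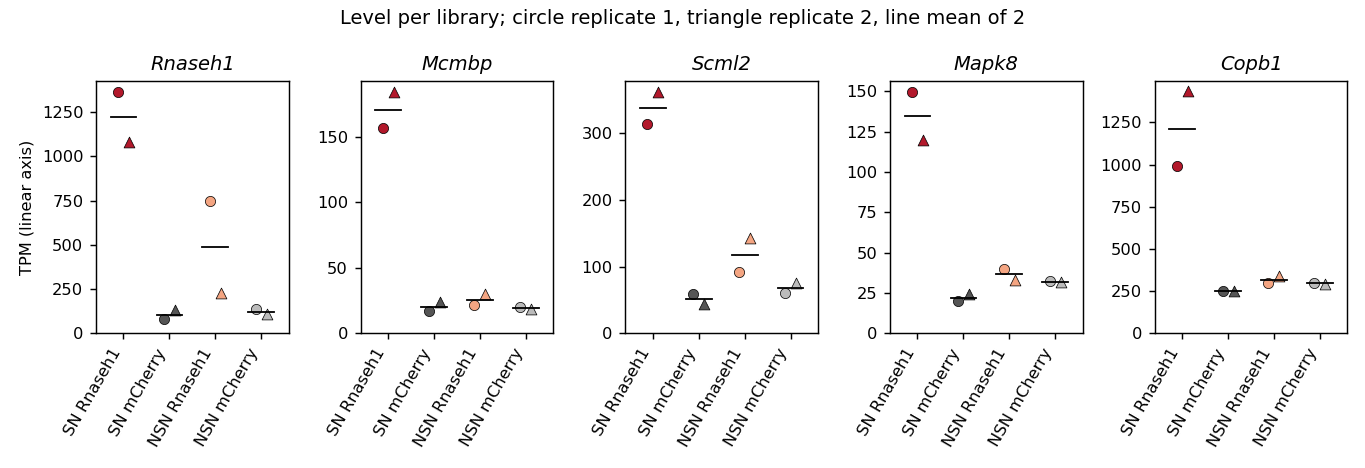
Level in TPM on linear axes of Rnaseh1, Mcmbp, Scml2, Mapk8 and Copb1 in each library of the SN and NSN groups, with circles for replicate 1, triangles for replicate 2 and lines for the mean of 2. The SN Rnaseh1 libraries are the highest in every panel, at 990 and 1436 TPM for Copb1, while the NSN Rnaseh1 libraries reach 745 and 229 TPM for Rnaseh1 and 296 and 339 TPM for Copb1.

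Mcmbp and Copb1 were higher in the SN Rnaseh1 libraries and lie on the same chromosome, and their promoters are shown to let their sequences be compared. Each runs from 250 bases before to 50 bases after the transcript start in RefSeq (GRCm38.p6), on the minus strand of chr7:128740380-128740679 for Mcmbp and of chr7:114254631-114254930 for Copb1, 5′ to 3′. Capitals mark GGGCGG, the core of the GC box, or its reverse complement CCGCCC.
Mcmbp promoter: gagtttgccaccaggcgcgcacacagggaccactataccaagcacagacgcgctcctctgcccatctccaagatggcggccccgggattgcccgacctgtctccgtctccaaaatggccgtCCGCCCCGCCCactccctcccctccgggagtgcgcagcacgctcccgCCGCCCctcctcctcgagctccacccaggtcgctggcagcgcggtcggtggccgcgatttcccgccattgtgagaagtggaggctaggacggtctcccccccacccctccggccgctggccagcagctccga
Copb1 promoter: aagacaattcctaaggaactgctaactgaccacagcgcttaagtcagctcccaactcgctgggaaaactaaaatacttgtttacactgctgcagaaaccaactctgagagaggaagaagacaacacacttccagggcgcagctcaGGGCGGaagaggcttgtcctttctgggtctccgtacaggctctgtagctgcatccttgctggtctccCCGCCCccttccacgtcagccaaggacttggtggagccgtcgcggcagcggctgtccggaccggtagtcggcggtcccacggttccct
The Mcmbp promoter had a GC content of 69.7%, 28 CpG dinucleotides and 3 GGGCGG matches, and that of Copb1 had 57%, 16 and 2. GGGCGG was searched on both strands in every promoter with a RefSeq entry. It was present in 62.3% of the 122 promoters of genes at least 2-fold higher with Rnaseh1, in 54.9% of the 195 of genes at least 2-fold lower, and in 59% of the 9445 of all tested genes. The CCAAT motif, also on both strands, was present in 44.3% and 40% of the same sets of higher and lower genes and in 39.7% of all. TATAAA was present in 5.74%, 6.67% and 7.97%. The shares lay near those of all tested promoters. The median GC content was 61.2% for promoters of the higher genes, 57.7% for the lower and 59.7% for all. The median number of CpG dinucleotides was 22, 16 and 20.

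Beyond these genes, 8 others had one of the 12 widest gaps on the higher side. Paip1, which encodes a partner of the poly(A)-binding protein that stimulates translation, had 1083 and 1171 TPM in SN Rnaseh1 oocytes, against 215 and 131 TPM in SN mCherry oocytes (log2 fold change 2.74, SE 0.48). Myef2, an RNA-binding repressor of myelin gene expression, had 56.9 and 52.3 TPM with Rnaseh1 and 7.59 and 6.89 TPM with mCherry (log2 fold change 2.75, SE 0.48). Both groups were tight for Myef2, and both genes rose in the rescue set, by 3.17 and 2.84 on the log2 scale (limma adjusted p = 0.00036 and 2e-05). Tob1, an antiproliferative protein that recruits the CCR4-NOT deadenylase, had 45.2 and 36.7 TPM with Rnaseh1 and 7.83 and 3.82 TPM with mCherry. Cyct, the testis form of cytochrome c, had 108 and 147 TPM with Rnaseh1 and 25.6 and 22.5 TPM with mCherry. These also rose in the rescue set, by 1.81 and 1.60 (limma adjusted p = 0.00033 and 0.012).

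The other genes of the 12 widest gaps were Tmem132c, Zfp758, Snhg14 and Tcte3. Tmem132c, a transmembrane protein gene, had 91.7 and 75.9 TPM with Rnaseh1 and 18.4 and 13.4 TPM with mCherry. Zfp758, a zinc finger gene, had 22.3 and 26.4 TPM with Rnaseh1 and 4.50 and 3.09 TPM with mCherry. Snhg14, the long small-nucleolar-RNA host transcript of the imprinted region that also runs antisense to Ube3a, had 93.0 and 113 TPM with Rnaseh1 and 22.1 and 10.3 TPM with mCherry. Their SN groups were well apart, yet Snhg14 varied from 0.83 to 79.0 TPM between the NSN Rnaseh1 libraries, and reads could not be told apart from those of its many overlapping genes. Tcte3, a gene of the Tctex dynein light chain family with an overlapping near copy in the annotation, had 8.22 and 10.2 TPM with Rnaseh1 and was listed at 0 in both mCherry libraries. The division of reads between its copies is uncertain, and NSN mCherry oocytes had 3.63 and 10.3 TPM. Tmem132c rose in the rescue set by 1.47 on the log2 scale (limma adjusted p = 0.0011), and the others did not pass, with 0.15 for Zfp758, -0.59 for Snhg14 and 0.56 for Tcte3 (limma adjusted p = 0.57, 0.12 and 0.18). With the GC trend removed there, Zfp758 and Snhg14 fell by 0.60 and 1.66 (limma adjusted p = 0.044 and 0.0034), opposite to their SN gaps.

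On the lower side, Adgrl4, an adhesion G-protein-coupled receptor known from endothelium, had 2.92 and 3.02 TPM in SN Rnaseh1 oocytes, against 51.0 and 27.7 TPM in SN mCherry oocytes (log2 fold change -3.28, SE 0.70). Ppcdc, an enzyme of coenzyme A synthesis, had 1.24 and 0.31 TPM with Rnaseh1 and 14.5 and 14.1 TPM with mCherry (log2 fold change -3.16, SE 0.53). Ms4a10, a gene of the membrane-spanning 4A family, had 2.84 and 1.95 TPM with Rnaseh1 and 18.5 and 21.2 TPM with mCherry (log2 fold change -2.63, SE 0.39). The mCherry libraries agreed closely for Ppcdc and Ms4a10, so the gap there did not rest on library 2. In the rescue set Adgrl4 fell by 2.61 on the log2 scale (limma adjusted p = 0.00012), while Ppcdc and Ms4a10 stood at -0.79 and -0.10 (limma adjusted p = 0.05 and 0.78). With the GC trend removed from the rescue table, Ppcdc stood at -0.08 (limma adjusted p = 0.83) and Ms4a10 rose by 1.18 (limma adjusted p = 0.0092), opposite to its SN gap. The promoters of Ppcdc and Ms4a10 are shown for contrast with the GC-rich promoter of Mcmbp, from the same source, on the minus strand of chr9:57439687-57439986 and chr19:10974651-10974950, 5′ to 3′, with the same motif in capitals.
Ppcdc promoter: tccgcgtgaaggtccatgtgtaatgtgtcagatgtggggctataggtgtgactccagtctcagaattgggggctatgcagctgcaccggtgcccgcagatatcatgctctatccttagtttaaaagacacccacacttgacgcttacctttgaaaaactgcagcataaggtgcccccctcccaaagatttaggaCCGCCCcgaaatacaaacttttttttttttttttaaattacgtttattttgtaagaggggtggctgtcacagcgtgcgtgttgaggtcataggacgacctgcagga
Ms4a10 promoter: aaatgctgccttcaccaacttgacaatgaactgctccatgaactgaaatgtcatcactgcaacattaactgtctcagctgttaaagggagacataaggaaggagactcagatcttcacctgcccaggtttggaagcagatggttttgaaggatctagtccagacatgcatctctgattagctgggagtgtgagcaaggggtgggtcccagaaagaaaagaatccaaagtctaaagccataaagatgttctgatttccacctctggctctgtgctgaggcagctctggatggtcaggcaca
The Ppcdc promoter had a GC content of 47.3% with 11 CpG dinucleotides and 1 match, and that of Ms4a10 had 46.7% with 0 CpG dinucleotides and 0 matches. The promoters shown do not stand for their sets, whose median GC content was 61.2% for the higher and 57.7% for the lower genes.

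Olfr624, an odorant receptor gene, had 12.2 and 8.07 TPM with Rnaseh1 and 77.8 and 95.7 TPM with mCherry. Abcb1b, which encodes a P-glycoprotein efflux pump, had 15.7 and 15.5 TPM with Rnaseh1 and 63.5 and 119 TPM with mCherry. Wdr18, a ribosome biogenesis factor, had 2.90 and 1.35 TPM with Rnaseh1 and 14.1 and 22.2 TPM with mCherry. None of the 3 overlapped between the SN groups, and all 3 fell in the rescue set, by 3.26, 1.91 and 3.17 on the log2 scale, the last being -1.75 with the GC trend removed. Pld3 (a lysosomal nuclease), Agtrap, Tmem132d and Cnn1 (calponin) were at 0.24 to 2.55 TPM with Rnaseh1 and at 4.14 to 29.7 TPM with mCherry, and all 4 fell in the rescue set, although the limma adjusted p of Agtrap there was 0.22 with the GC trend removed. Rsc1a1 was listed at 0 in both Rnaseh1 libraries and at 12.1 and 26.1 TPM with mCherry, and the rescue set gave 0 in both Rnaseh1 libraries and 26.4 and 29.9 TPM with mCherry. It lies within Ddi2 on the same strand, so its reads are uncertain, as are those of the H2B histone gene Hist1h2bj, which has near-identical copies and was listed at 0 in both Rnaseh1 libraries and at 5.33 and 11.3 TPM with mCherry.

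**Figure D3:**
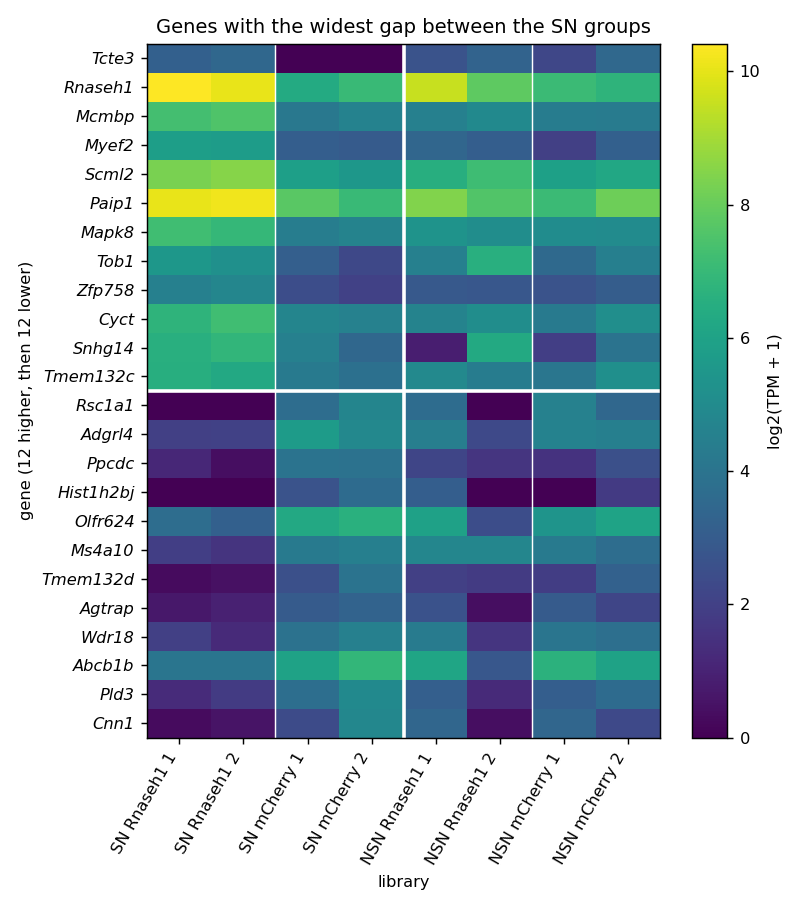
Level as log2(TPM + 1), by colour, of the 12 genes with the widest gap on the higher side (above the white line) and the 12 on the lower side (below it), in the 8 libraries of the table. In the lower block the second NSN Rnaseh1 library is dark like the SN Rnaseh1 libraries at most genes, such as Adgrl4 at 3.90 TPM, but not at Ms4a10, at 26.8 TPM.

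Among abundant transcripts at least 2-fold apart, Tmem60 had 2097 and 2060 TPM in SN Rnaseh1 oocytes, against 665 and 440 TPM in SN mCherry oocytes. Mrps22, a mitochondrial ribosomal protein gene, had 1611 and 1786 TPM with Rnaseh1 and 784 and 673 TPM with mCherry. For both genes the SN groups did not overlap. Tmem60 rose in the rescue set by 1.43 on the log2 scale (limma adjusted p = 7.2e-06), and Mrps22 stood at 0.14 (limma adjusted p = 0.11, or 0.64 and 0.00031 with the GC trend removed). On the lower side Tcl1, a co-activator of AKT that oocytes express strongly, had 1436 and 1916 TPM with Rnaseh1 and 4260 and 6976 TPM with mCherry. Pabpn1l, the poly(A)-binding protein of oocytes, had 179 and 198 TPM with Rnaseh1 and 519 and 1886 TPM with mCherry. Khdc3, a member of the subcortical maternal complex, had 117 and 143 TPM with Rnaseh1 and 310 and 1022 TPM with mCherry. For all 3 the groups did not overlap, SN mCherry library 2 was the highest SN library, and the gene fell with Rnaseh1 in the rescue set, where the log2 fold change was -2.39 for Tcl1, -2.42 for Pabpn1l and -0.74 for Khdc3. With the GC trend removed from the rescue table, these were -1.33 for Tcl1, -0.94 for Pabpn1l and 0.92 for Khdc3.

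Gene lists were described by their members' positions, and no member of any list passed the adjusted threshold in SN oocytes. Of 29 genes of R-loop processing, 28 were tested, and 6 were higher in both Rnaseh1 libraries (21.4%, against 18.9% of all tested genes) and 10 lower (35.7%, against 31.7%). Their median log2 fold change was -0.10, against -0.22 over all tested genes, with 0.08 against SN mCherry library 1 and -0.32 against library 2. Of the subunits of RNase H2, Rnaseh2a and Rnaseh2c were lower without overlap and Rnaseh2b overlapped. Rnaseh2a had 29.5 and 15.9 TPM with Rnaseh1 and 41.1 and 59.2 TPM with mCherry. Rnaseh2c had 15.4 and 9.50 TPM with Rnaseh1 and 26.7 and 39.0 TPM with mCherry, whereas Rnaseh2b had 13.1 and 12.3 TPM with Rnaseh1 and 9.28 and 14.0 TPM with mCherry. Thoc6, a subunit of the THO complex that couples transcription to mRNA export, had 7.49 and 7.42 TPM with Rnaseh1 and 20.4 and 67.4 TPM with mCherry, which was the one member at least 2-fold apart on the lower side. Top1, topoisomerase I, had 92.2 and 95.4 TPM with Rnaseh1 and 78.2 and 56.5 TPM with mCherry.

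Mcmbp was set beside the MCM genes. Among the 10 tested genes, Mcm2 to Mcm10 and Mcmbp, Mcmbp was the one higher without overlap, 4 were lower and 5 overlapped (10% and 40%, against 18.9% and 31.7% of all tested genes). The lower ones were Mcm5 and Mcm6, with gaps of only -0.03 and -0.11, and Mcm8 and Mcm10, which are not core subunits of the helicase. The median log2 fold change of the 10 genes was -0.30, with -0.06 against SN mCherry library 1 and -0.72 against library 2. Mcm10, a replication initiation factor, had 29.9 and 29.8 TPM with Rnaseh1 and 47.4 and 57.3 TPM with mCherry. Mcm3, a core subunit, had 48.1 and 70.6 TPM with Rnaseh1 and 65.9 and 57.5 TPM with mCherry, and so overlapped. Of the 14 origin licensing genes, 3 were higher and 7 lower (21.4% and 50%, against 18.9% and 31.7% of all tested genes), with a median of -0.59 ( -0.10 against SN mCherry library 1 and -0.81 against library 2). Geminin (Gmnn), the inhibitor of licensing, was among the higher, at 504 and 442 TPM with Rnaseh1 and 388 and 271 TPM with mCherry.

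Copb1 was set beside the other genes of its coat. Of 12 COPI genes, it was the one higher with Rnaseh1, while 7 were lower and 4 overlapped (8.33% and 58.3%, against 18.9% and 31.7% of all tested genes), with a median log2 fold change of -0.84. That median was -0.21 against SN mCherry library 1 and -1.14 against library 2, where all tested genes had -0.08 and -0.30. Copb2, the beta-prime subunit, had 30.2 and 39.1 TPM with Rnaseh1 and 45.6 and 74.9 TPM with mCherry. Arf1, the GTPase that recruits the coat, had 96.9 and 89.2 TPM with Rnaseh1 and 121 and 550 TPM with mCherry. Copa, the alpha subunit, overlapped, at 14.9 and 14.0 TPM with Rnaseh1 and 14.8 and 19.9 TPM with mCherry. Of 11 COPII genes, 4 were higher and 2 lower (36.4% and 18.2%, median 0.21). Among the higher was Sec24d, a cargo adaptor, at 21.7 and 17.0 TPM with Rnaseh1 and 6.87 and 9.24 TPM with mCherry.

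Of 29 tested Polycomb genes, 7 were higher and 8 lower (24.1% and 27.6%, against 18.9% and 31.7% of all tested genes), with a median log2 fold change of -0.06. The members at least 2-fold apart on the higher side were Scml2 and Pcgf5, a subunit of variant PRC1, which had 17.5 and 18.3 TPM with Rnaseh1 and 6.69 and 6.58 TPM with mCherry. Aebp2, an accessory subunit of PRC2, had 75.3 and 99.8 TPM with Rnaseh1 and 49.4 and 32.9 TPM with mCherry. The catalytic subunit Ezh2 overlapped, at 331 and 350 TPM with Rnaseh1 and 384 and 213 TPM with mCherry. Phf1, another accessory factor of PRC2, was the member at least 2-fold apart on the lower side, at 0.62 and 0.42 TPM with Rnaseh1 and 2.51 and 10.2 TPM with mCherry.

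Of 33 tested genes of the MAP kinase cascades, 2 were higher, 12 lower and 19 overlapped (6.06% and 36.4%, against 18.9% and 31.7% of all tested genes). Their median log2 fold change was -0.32, with 0.04 against SN mCherry library 1 and -0.49 against library 2. The higher ones were the JNK genes Mapk8 and Mapk10, the second at 8.60 and 8.01 TPM with Rnaseh1 and 6.64 and 6.05 TPM with mCherry. Mapk9, the other JNK gene, overlapped, at 11.9 and 21.7 TPM with Rnaseh1 and 14.5 and 24.4 TPM with mCherry. Map2k4, a kinase that activates JNK, also overlapped, at 25.0 and 28.9 TPM with Rnaseh1 and 21.8 and 52.1 TPM with mCherry. Mos, the oocyte kinase that drives the MAP kinase pathway in meiosis, had 48.0 and 51.3 TPM with Rnaseh1 and 96.9 and 782 TPM with mCherry. Map2k2, a kinase of the ERK branch, had 2.86 and 2.37 TPM with Rnaseh1 and 6.97 and 27.5 TPM with mCherry. For Mos and Map2k2 the groups did not overlap, and most of the difference lay in SN mCherry library 2.

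**Figure D4:**
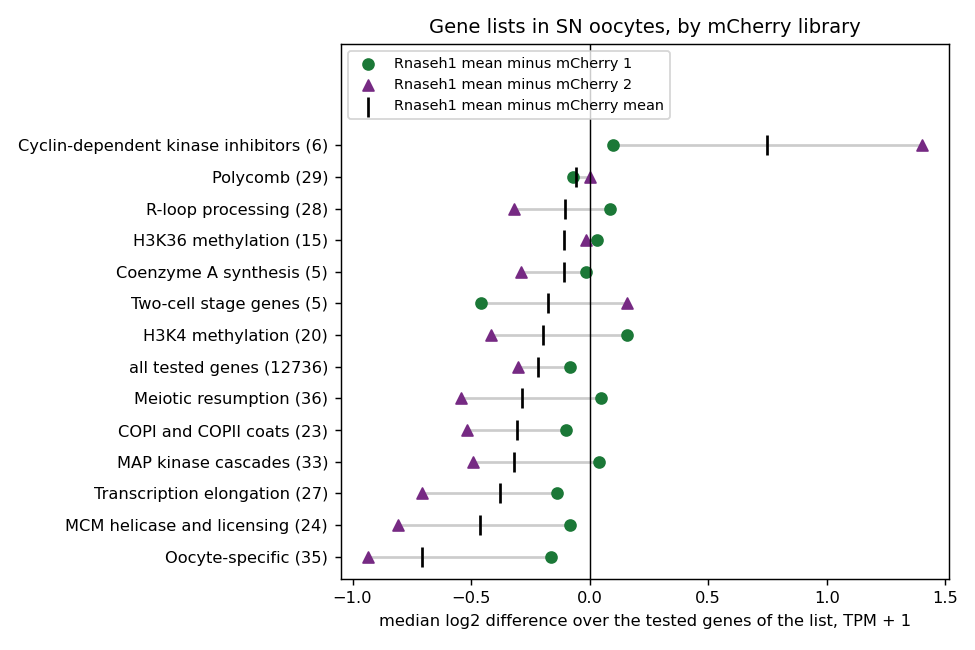
Median log2 difference on the TPM + 1 scale over the tested genes of each list in SN oocytes, for the mean of the Rnaseh1 libraries minus mCherry library 1 (circles), minus mCherry library 2 (triangles) and minus the mCherry mean (bars), with the number of genes in brackets. The medians against mCherry library 1 and library 2 lie far apart for several lists, at -0.17 and -0.93 for the oocyte-specific genes, and on either side of 0 for the MAP kinase cascades, at 0.04 and -0.49. The 2 marker lists of other cell types are not drawn.

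The histone marks named in the series title were followed through their enzymes. Of 15 tested genes of H3K36 methylation, 5 were higher and 5 lower (33.3% each, against 18.9% and 31.7% of all tested genes), with a median log2 fold change of -0.11. Setd2, the enzyme that adds the last methyl group of H3K36me3, overlapped, at 50.7 and 30.1 TPM with Rnaseh1 and 33.4 and 16.7 TPM with mCherry. Nsd2, an H3K36 dimethyltransferase, had 10.8 and 7.39 TPM with Rnaseh1 and 17.6 and 25.3 TPM with mCherry. Psip1, a reader of methylated H3K36, had 272 and 293 TPM with Rnaseh1 and 171 and 96.0 TPM with mCherry. Of the 6 tested methyltransferases, 1 was higher and 3 lower (16.7% and 50%), with a median of -0.86. That median was -0.54 against SN mCherry library 1 and -1.03 against library 2. Of the 3 tested demethylases, 1 was higher and 1 lower (33.3% each). Among the 6 readers, 3 were higher and 1 lower (50% and 16.7%), and the gap of Morf4l1, a higher one, was only 0.05.

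Of 20 tested genes of H3K4 methylation, 7 were higher and 7 lower (35% each, against 18.9% and 31.7% of all tested genes). Their median was -0.20, with 0.16 against SN mCherry library 1 and -0.42 against library 2. Among the 5 demethylases 3 were higher and 1 lower (60% and 20%), with a median of 0.98 that was 0.43 against SN mCherry library 1 and 1.29 against library 2. Kdm1b, the oocyte H3K4 demethylase needed for maternal imprints, had 97.3 and 108 TPM with Rnaseh1 and 64.4 and 41.4 TPM with mCherry. Kdm5c had 5.04 and 5.33 TPM with Rnaseh1 and 3.25 and 1.27 TPM with mCherry. Kdm1a, the demethylase on the lower side, had 14.2 and 14.4 TPM with Rnaseh1 and 21.2 and 21.3 TPM with mCherry. Of the methyltransferase subunits, Rbbp5 had 8.59 and 7.63 TPM with Rnaseh1 and 14.3 and 22.8 TPM with mCherry, without overlap. Kmt2b, the H3K4 methyltransferase known to be needed in growing oocytes, overlapped, at 2.36 and 0.93 TPM with Rnaseh1 and 1.37 and 3.54 TPM with mCherry.

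Of 27 tested genes of transcription elongation, 6 were higher and 10 lower (22.2% and 37%, against 18.9% and 31.7% of all tested genes). Their median was -0.38, with -0.14 against SN mCherry library 1 and -0.71 against library 2. Supt6 overlapped, at 1.97 and 1.32 TPM with Rnaseh1 and 1.89 and 7.27 TPM with mCherry. Iws1, its binding partner, had 39.7 and 50.3 TPM with Rnaseh1 and 28.4 and 26.0 TPM with mCherry. Cdc73, a subunit of the PAF1 complex, had 6.79 and 9.25 TPM with Rnaseh1 and 4.44 and 0.82 TPM with mCherry. For Iws1 and Cdc73 the groups did not overlap. Cdk9, the kinase that releases paused polymerase, was low in all 4 libraries, at 0.66 and 0 TPM with Rnaseh1 and 0.92 and 4.03 TPM with mCherry.

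Of 35 tested oocyte-specific genes, 18 were lower (51.4%, against 31.7% of all tested genes) and 6 higher (17.1%, against 18.9%), with a median log2 fold change of -0.71. Against SN mCherry library 1 the median was -0.17, and against library 2 it was -0.93. The maternal-effect genes, 16 of the 35, made up 9 of the 18, so 56.2% of them were lower, near the 51.4% of the whole list. Gdf9, a growth factor secreted by the oocyte, had 1412 and 1281 TPM with Rnaseh1 and 1587 and 7765 TPM with mCherry. Zp3, a zona pellucida protein, had 547 and 695 TPM with Rnaseh1 and 1131 and 4443 TPM with mCherry. Padi6, of the cytoplasmic lattices, had 180 and 195 TPM with Rnaseh1 and 337 and 1685 TPM with mCherry. In these genes SN mCherry library 2 carried most of the difference. Other oocyte genes stood the other way: Oosp3, an oocyte-secreted protein, had 4288 and 4118 TPM with Rnaseh1 and 2227 and 2384 TPM with mCherry, with both mCherry libraries level.

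Of 36 tested genes of meiotic resumption, 6 were higher and 11 lower (16.7% and 30.6%, against 18.9% and 31.7% of all tested genes). Their median was -0.29, with 0.05 against SN mCherry library 1 and -0.54 against library 2. Mastl, the Greatwall kinase that restrains PP2A at meiotic entry, had 573 and 407 TPM with Rnaseh1 and 261 and 222 TPM with mCherry. Cdc20, an activator of the anaphase-promoting complex, had 32.8 and 36.6 TPM with Rnaseh1 and 61.0 and 248 TPM with mCherry. Cdk1 had 139 and 160 TPM with Rnaseh1 and 229 and 321 TPM with mCherry. None of the 3 overlapped, whereas cyclin B1 (Ccnb1) did, at 832 and 1287 TPM with Rnaseh1 and 736 and 1142 TPM with mCherry. Of 6 tested cyclin-dependent kinase inhibitors, 3 were higher and 1 lower (50% and 16.7%), with a median of 0.75 that was 0.10 against SN mCherry library 1 and 1.40 against library 2. Cdkn1c (p57) had 12.02 and 9.24 TPM with Rnaseh1 and 2.10 and 2.7 TPM with mCherry, and Cdkn1b (p27) had 11.8 and 4.94 TPM with Rnaseh1 and 1.60 and 0.54 TPM with mCherry. Of 5 tested coenzyme A genes, Ppcdc was lower, Pank3 higher and 3 overlapped, and of 5 two-cell stage genes 1 was lower and 4 overlapped.

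Whether the SN response differed from that of NSN oocytes was tested as the difference of the Rnaseh1 effects. No gene passed in limma (0%), the smallest adjusted p was 1, and 288 genes had an unadjusted p under 0.05 (2.26%). The difference in log2 fold change, SN minus NSN, was 2.64 for Mcmbp, 2.37 for Mapk8, 2.14 for Copb1, 1.95 for Scml2 and 1.79 for Rnaseh1, and the median SE of this difference over all genes was 0.75. The SN and NSN groups share no library. Across the 12736 genes the SN and NSN effects had a Pearson's r of 0.52 and a Spearman's rho of 0.54. NSN Rnaseh1 library 2 and SN mCherry library 2 were the least alike pair of the table (SD 1.72). The first enters the NSN effect and the second the SN effect. NSN Rnaseh1 library 1 differed from the NSN mCherry libraries with SDs of 0.64 and 0.601, and NSN Rnaseh1 library 2 with 1.34 and 1.22. The part of these outlying libraries in the shared direction was not tested. Of the 187 genes at least 2-fold higher in SN oocytes, 53 were higher without overlap in NSN oocytes (28.3%, against 10.3% of all tested genes) and 6 lower (3.21%, against 22.6%). Of the 273 genes at least 2-fold lower, 67 were lower in NSN oocytes (24.5%, near the 22.6% of all tested genes) and 9 higher (3.3%, against 10.3%).

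The rescue set, whose libraries are separate from the SN libraries, held the same contrast of Rnaseh1 with mCherry and gave a second measurement of the SN genes. Of the 187 genes at least 2-fold higher in SN oocytes, 168 were tested there, and 109 rose (64.9%) and 10 fell (5.95%), against 21% and 45.9% of the 11806 genes tested in both tables. Of the 273 genes at least 2-fold lower, 254 were tested there, and 208 fell (81.9%) and 7 rose (2.76%). The median log2 fold change in the rescue set was 0.99 for the higher genes, -2.04 for the lower genes and -0.49 for all. The 109 genes made up 4.39% of the 2482 that rose in the rescue set, and the 208 made up 3.84% of the 5422 that fell. Transcript GC content moved with these sets, with a median of 43.9% for the higher genes, 52.5% for the lower genes and 48.1% for all. After removal of the GC trend from the rescue values, an alternative chosen after seeing the data, 60.7% of the higher genes rose and 5.36% fell, and 59.1% of the lower genes fell and 10.2% rose, against 28.2% and 30.2% of all. Across genes, the SN and rescue effects had a Pearson's r of 0.69 and a Spearman's rho of 0.69.

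**Figure D5:**
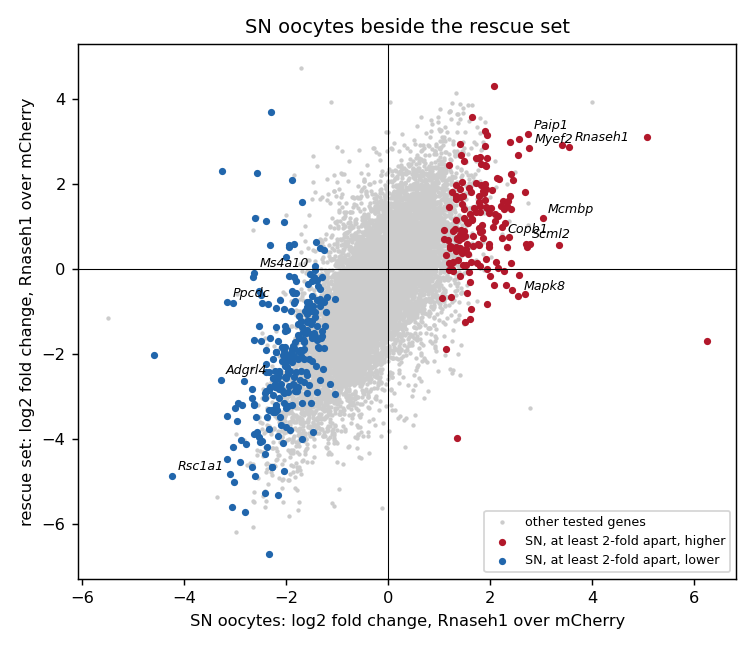
Log2 fold change of Rnaseh1 over mCherry on the TPM + 1 scale in SN oocytes (horizontal axis) and in the rescue set (vertical axis) for the 11806 genes tested in both tables, with genes at least 2-fold apart in SN oocytes in red (higher) and blue (lower). Most red points lie above 0 and most blue points below 0 on the vertical axis, and Mapk8 lies at 2.55 in SN oocytes and -0.63 in the rescue set.

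The SN libraries differed in which rescue library they resembled, although the tables were normalized separately. Against the means of rescue Rnaseh1 and rescue mCherry over the 11806 genes, Pearson's r was 0.954 and 0.813 for SN Rnaseh1 library 1, and 0.945 and 0.816 for SN Rnaseh1 library 2. SN mCherry library 1 had 0.948 with rescue Rnaseh1 and 0.857 with rescue mCherry. SN mCherry library 2 had 0.839 and 0.946. SN mCherry library 1 was thus closer to rescue Rnaseh1 and SN mCherry library 2 closer to rescue mCherry, while Rnaseh1 itself was low in both. The NSN mCherry libraries were also closer to rescue Rnaseh1, at 0.903 and 0.923, than to rescue mCherry, at 0.889 and 0.877. SN mCherry library 2 was the only library of its table closer to rescue mCherry than to rescue Rnaseh1. Its r with rescue Rnaseh1 plus Supt6 was higher still, at 0.961.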

How the data were processed

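Polyadenylated RNA of oocytes was reverse-transcribed, amplified and sequenced, per the labels' protocols. The authors deposited TPM values per gene, 1 column per library. Per the submitters' processing notes, the tools included RSEM 1.3.3, STAR 2.7.0d and Trim Galore 0.6.7, with DESeq2 and the mm10 build also listed, and no step is assigned to any of them. Strand use in counting and read depth are not given in the sources used here.

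Genes that reached a TPM of 1 in 2 or more of the 8 libraries were fitted with limma 3.58.1 (lmFit, contrasts.fit, eBayes with a trend, R 4.3.3) after log2(TPM + 1) transformation, with group means and 1 estimate of the spread. Calls were made at a Benjamini-Hochberg adjusted p of 0.05. The pseudocount of 1 shrinks the fold change of genes with low TPM. The rescue table was filtered the same way and fitted apart. The fit was tested on simulated data. Of the 35389 identifiers, 35319 had a symbol and 34611 were found in GENCODE M21 (GRCm38), which gave coordinates and the GC content of the longest transcript.

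The genes and the 15 lists were chosen with earlier results of these data known. Named genes were the 5 given with the comparison, the 12 per direction with the widest gap and a mean TPM of at least 5 in the higher group (gene models left out), the 5 per direction with the highest level among genes at least 2-fold apart, up to 3 per list with the smallest p, those that set SN mCherry library 2 apart, and those nearest the 2-fold edge. Other list members were named after their values were seen, for their role. Alternatives were other pseudocounts, filters, scalings, GC trend removal, library weights, a replicate block, and leaving out libraries.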

Additional observations from a re-analysis of the deposited data

Results flagged for a closer look

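For 4 of the 71 named genes examined, both Rnaseh1 libraries lay on one side of both mCherry libraries in SN oocytes and on the other side in NSN oocytes, as they did for 376 of the 12736 tested genes (2.95%). The stage difference of each, SN minus NSN on the log2 scale, had a limma adjusted p of 1.

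Ms4a10 had 2.84 and 1.95 TPM with Rnaseh1 and 18.5 and 21.2 TPM with mCherry in SN oocytes, and 26.7 and 26.8 TPM with Rnaseh1 and 18.3 and 12.3 TPM with mCherry in NSN oocytes, a stage difference of -3.42 (SE 0.56). Cdkn1c had 12.02 and 9.24 TPM with Rnaseh1 and 2.10 and 2.7 TPM with mCherry in SN oocytes, and 2.71 and 3.26 TPM with Rnaseh1 and 8.49 and 6.80 TPM with mCherry in NSN oocytes, a stage difference of 2.88 (SE 0.58). For these genes the gap was wide in SN oocytes and narrower in NSN oocytes. The nearest NSN libraries of the Rnaseh1 and mCherry groups had 26.7 and 18.3 TPM for Ms4a10, and 3.26 and 6.80 TPM for Cdkn1c.

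Mrps22 had 1611 and 1786 TPM with Rnaseh1 and 784 and 673 TPM with mCherry in SN oocytes, and 715 and 570 TPM with Rnaseh1 and 806 and 800 TPM with mCherry in NSN oocytes, a stage difference of 1.55 (SE 0.43). Nr5a2 had 7.32 and 5.95 TPM with Rnaseh1 and 5.14 and 5.81 TPM with mCherry in SN oocytes, and 4.85 and 4.20 TPM with Rnaseh1 and 7.95 and 6.32 TPM with mCherry in NSN oocytes, a stage difference of 0.79 (SE 0.56). Its SN groups were barely apart.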

How the results depend on the processing

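No gene was called in SN oocytes in limma under the alternatives, except 1, Gm37750 (adjusted p = 0.035), with SN mCherry library 2 and NSN Rnaseh1 library 2 both left out. Of the alternative SN values of genes named by rule, 1764 kept their direction, 12 reversed and none passed the threshold. Many of the kept directions were fixed in advance. Other filters, library weights, a replicate block, the SN groups alone or a left-out NSN library leave the SN fold change as it was. The 1764 therefore overstate how far the directions were tried. Without SN mCherry library 2, alone or together with NSN Rnaseh1 library 2, Rab1b stood at 0.557, Tmem102 at 0.189 and Tpra1 at 0.147. These genes were named for being high in that library, and leaving out 1 library gave down to -4.22, -4.34 and -3.78. Tcstv3 stood at 0.0589 with median centring, 0.0784 with the GC trend removed and -0.459 to 0.105 with 1 library left out, and Zscan4d at 0.0586 with median centring, 0.116 with quantile normalization and -0.513 to 0.157 with 1 library left out. The other list members named for their role were not refitted under the alternatives. The counts at least 2-fold apart (187 higher, 273 lower) were 297 and 600 with a pseudocount of 0.1 and 92 and 71 with a pseudocount of 5. The lower count was 172 with quantile normalization and 141 with the GC trend removed, of which 128 were among the 273. Leaving out 1 SN library gave 335 to 1010 higher and 498 to 2963 lower, the smallest without SN mCherry library 2 and the largest without SN mCherry library 1. These counts could only rise, since the gap between the nearest libraries cannot narrow when a library is removed. All of the 187 and 273 genes stayed in. The 859 genes at an unadjusted p under 0.05 became 1303 with the SN groups fitted alone, 1644 with library weights, 1801 with SN mCherry library 2 and NSN Rnaseh1 library 2 both left out, and 269 to 2328 with 1 library left out, the largest without NSN Rnaseh1 library 1. Of these genes 54.2% were higher, against 40.3% with the SN groups alone and 32.7% without SN mCherry library 1. With the replicate number as a block there were 561. The same-numbered libraries deviated together with r = 0.065, so the numbers were not taken as pairs. Called genes ranged from 0 to 1 for the stage difference (Gm10226, without NSN Rnaseh1 library 2), and from 0 to 1103 for NSN oocytes (1103 without NSN Rnaseh1 library 1). The median rescue log2 fold change of the higher minus the lower SN genes was 3.03, and 1.98 with the GC trend removed. The cause was not tested for these values. A leave-one-out fit assumes that the lone library varies like the other groups.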
